A study of Mus musculus with 12 samples.

Results

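Chemokines of the CC class are small secreted proteins that draw leukocytes into tissue through receptors on the cell surface. CCL2 and CCL7 bring monocytes out of bone marrow and into inflamed tissue through CCR2, and the eotaxins CCL11 and CCL24 attract eosinophils through CCR3. In the colon such signals help to set which myeloid cells surround a tumour. The genes described here are a list of 10, chosen by name, of 24062 genes in the count table: the monocyte-attracting ligands Ccl2, Ccl7 and Ccl8, the eotaxins Ccl11 and Ccl24, the macrophage inflammatory proteins Ccl3 and Ccl4, the receptors Ccr2 and Ccr3, and the atypical receptor Ccrl2. All 10 were found in the table by symbol, and 9 of them had enough reads to be tested.

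RNA was sequenced from colon tumours of 12 Balb/c mice, 3 in each of 4 groups of bone marrow chimeras. Each group is named by marrow genotype, an arrow and host genotype: WT => WT, St2-/- => WT, WT => St2-/- and St2-/- => St2-/-. ST2, encoded by Il1rl1, is the receptor for the alarmin interleukin-33, and St2-/- animals lack it. All 12 hosts, WT => WT controls included, were irradiated with 2 doses of 5 Gy, given marrow and left for 8 weeks, then injected with the colon carcinogen azoxymethane at 10 mg/kg once a week, 6 times. Collection was 13 or 14 weeks past the final injection, with 4 WT hosts and 3 St2-/- hosts at 13 weeks, and 11 of the mice were male. The one female was WT => St2-/- replicate 3. The deletion is present in every cell of the donor or the host, so a host effect does not belong to any one cell type, and the share of host blood cells left after irradiation is not given in the labels. The libraries of WT hosts and of St2-/- hosts carry separate numberings in the labels. What the numbers stand for is not stated, so any cohort they mark cannot be told apart from host genotype. In bulk tumours, fewer cells of a type and less RNA per cell cannot be told apart either.

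Each library held between 10293818 and 12962496 reads assigned to genes, and 15060 genes passed the filter on low counts. Il1rl1 served as the check of the host labels. It stood at 36.5 to 275 CPM (gene counts scaled to a library of 1000000 reads after TMM correction) in the 6 tumours of WT hosts. In the 6 of St2-/- hosts it stood at 7.30 to 25.0 CPM, with no overlap. By marrow it overlapped: 53.5 to 275 CPM in WT => WT against 36.5 to 193 in St2-/- => WT. In St2-/- hosts it was 7.30 to 25.0 CPM with WT marrow and 7.91 to 13.4 with St2-/- marrow. Marrow genotype and engraftment were therefore not checked by Il1rl1. Its log2 difference between hosts was -3.42 (SE 0.52, edgeR adjusted p = 0.00984), and reads remained in every St2-/- => St2-/- tumour (7.91 to 13.4 CPM). Without WT => St2-/- replicates 2 and 3 the difference was -3.58 (edgeR adjusted p = 0.128). Which part of Il1rl1 is deleted is not given in the labels. Colon epithelial markers were present in every library. Smooth muscle markers set some libraries apart: their summed level was 3785 and 1793 CPM in WT => St2-/- replicates 2 and 3 against 400.5 CPM in replicate 1, and 3107 and 1663 CPM in St2-/- => WT replicates 1 and 2 against 598 CPM in replicate 3. The 6 tumours of the WT => WT and St2-/- => St2-/- groups ranged from 295 to 596 CPM. The differences of Ccl8, Ccrl2, Ccl3, Ccl4, Ccr2 and Ccl11 that involve WT => St2-/- are therefore also given without its replicates 2 and 3. That group is then 1 tumour assumed to vary like the rest. St2-/- => WT replicates 1 and 2 were left out only 1 at a time. Those fits therefore keep the muscle-rich tumours of WT hosts, and differences under St2-/- marrow are not given without both.

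The members of the list sit on 3 chromosomes of the GRCm38 genome (GENCODE annotation, coordinates of the whole gene). Ccl2 (chr11:82035571-82037453), Ccl7 (chr11:82045712-82047525), Ccl11 (chr11:82057823-82062955) and Ccl8 (chr11:82115185-82116799) follow one another on the plus strand of chromosome 11, with gaps of 8258, 10297 and 52229 bases between them. Ccl3 (chr11:83647844-83649355, minus strand) and Ccl4 (chr11:83662584-83664683, plus strand) lie further along the same chromosome, 13228 bases apart. Ccr3 (chr9:124021972-124031689), Ccr2 (chr9:124101950-124113557) and Ccrl2 (chr9:111054486-111057519, minus strand) are on chromosome 9, and Ccl24 (chr5:135569937-135573049, minus strand) stands alone on chromosome 5. Ccl2 overlaps a predicted gene on the opposite strand, Gm17268. Whether the counting used strand is not given in the sources used here, so reads from that gene and from Ccl2 could not be told apart.

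Promoter windows, 250 bases before to 50 bases after a RefSeq start site on GRCm38.p6, were at hand for 5 of the 10 genes: Ccrl2, with 3 start sites, and Ccr3, Ccr2, Ccl8 and Ccl3. The windows of Ccrl2 and Ccl8 are shown because these are the members that passed the test between hosts. They were searched on both strands for 4 motifs: NF-kB, by its usual consensus, STAT (TTCNNNGAA), an interferon response element (GAAANNGAA) and AP-1 (TGANTCA). Capitals mark a match. The Ccrl2 window is chr9:111057469-111057768 on the minus strand, and the Ccl8 window is chr11:82114935-82115234 on the plus strand.
Ccrl2: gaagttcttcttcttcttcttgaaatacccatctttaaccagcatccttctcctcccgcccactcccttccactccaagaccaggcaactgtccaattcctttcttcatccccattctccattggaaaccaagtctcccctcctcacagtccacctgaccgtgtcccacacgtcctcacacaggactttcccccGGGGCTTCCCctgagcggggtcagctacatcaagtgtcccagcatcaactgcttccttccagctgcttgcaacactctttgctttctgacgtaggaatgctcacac
Ccl8: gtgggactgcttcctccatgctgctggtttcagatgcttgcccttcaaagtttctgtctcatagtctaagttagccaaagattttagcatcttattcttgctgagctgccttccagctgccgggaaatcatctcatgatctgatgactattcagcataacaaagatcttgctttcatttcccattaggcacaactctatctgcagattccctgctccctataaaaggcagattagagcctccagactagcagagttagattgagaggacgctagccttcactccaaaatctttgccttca
The Ccrl2 window held 1 NF-kB match, from 56 to 47 bases before the start site, and the windows of its other start sites held no match to any of the 4 motifs. These letters are common: 4.51% of 32851 promoter windows of the same length in the mouse held an NF-kB match, 8.30% a STAT match, 8.56% an interferon response match and 7.81% an AP-1 match. The Ccl8 window held none of the 4. Ccr3 had an NF-kB and an AP-1 match, and Ccr2 and Ccl3 each had an interferon response match. A match is a run of letters and not a measured site of binding.

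Levels differed widely among the 10 genes. Per kilobase of exon and averaged over the 12 libraries, Ccl8 was highest at 51.2 ± 53.9 CPM per kb (SD, n = 12), followed by Ccl7 at 23.8 ± 9.41 and Ccl2 at 7.91 ± 3.28 CPM per kb. The eotaxins stood at 4.32 ± 4.17 CPM per kb for Ccl11 and 4.27 ± 2.23 for Ccl24, and Ccl11 was above Ccl24 in only 5 of the 12 libraries, so their order is not set beyond their spread. Ccl3 (2.53 ± 1.35 CPM per kb), Ccl4 (2.29 ± 1.56) and Ccrl2 (1.95 ± 1.00) were close to each other: Ccl3 exceeded Ccl4 in 9 libraries and Ccl4 exceeded Ccrl2 in 7. Ccr2 followed at 1.31 ± 0.503 CPM per kb, over an annotated exon length of 6760 bases that would understate it if the tumours use shorter transcripts. Ccl8 was above Ccl7 in 10 of 12 libraries, and Ccl7 was above Ccl2 in all 12.

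**Figure D1:**
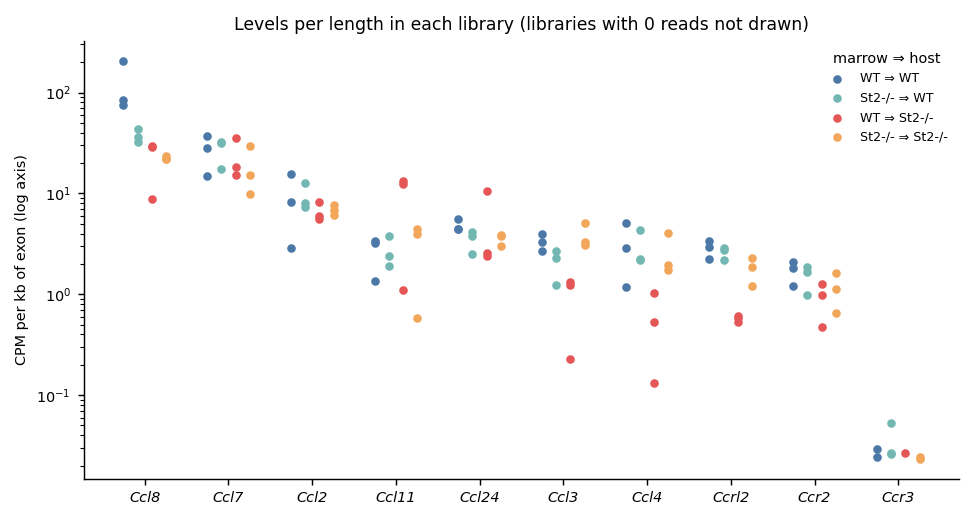
Level of each of the 10 genes per kilobase of annotated exon, in CPM per kb on a log axis, with 1 point per library coloured by marrow => host group; libraries with 0 reads are not drawn. Ccl8 and Ccl7 lie at the top and Ccr3, with 9 reads in all, at the bottom.

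Over both marrows, Ccl8 and Ccrl2 fell in the tumours of St2-/- hosts, and no other member passed the test. These were 2 of the 9 members tested, both lower, where 1.37% of all 15060 genes were called (206 genes) and 1.08% were called lower (162 genes). A gene is called here at an edgeR adjusted p under 0.05. The log2 differences of 7 of the 9 lay below 0, with a median of -0.46 against -0.002 over all genes tested. With WT marrow alone, Ccrl2 was the single member called, where 0.159% of all genes were called and 0.12% called lower. With St2-/- marrow alone no member was called, where 0.0598% of genes were called. By unadjusted p under 0.05, none of the 9 members and 1809 of all genes differed between hosts under St2-/- marrow. There limma-voom called Ccrl2 alone of the 9, with 13.3% of all genes called, and DESeq2 called none, with 1.74% of all genes called.

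Ccl2 encodes the main ligand of CCR2. It stood at 3.26, 17.6 and 9.39 CPM in the 3 WT => WT tumours, at 9.22, 8.32 and 14.3 CPM in St2-/- => WT, at 6.86, 9.30 and 6.33 CPM in WT => St2-/-, and at 8.71, 7.83 and 6.96 CPM in St2-/- => St2-/-. The WT => WT tumours held both the lowest and the highest of the 12 values, and all groups overlapped. The log2 difference between hosts was -0.43 averaged over marrows (SE 0.34, edgeR adjusted p = 0.498), -0.42 with WT marrow (SE 0.48, edgeR adjusted p = 0.681) and -0.44 with St2-/- marrow (SE 0.48, edgeR adjusted p = 0.728). The spread was larger in WT hosts, at 10.3 ± 4.99 CPM (SD, n = 6), than in St2-/- hosts, at 7.67 ± 1.16 CPM (SD, n = 6). That difference in spread was not tested.

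Ccl7, which lies next to Ccl2 and encodes another CCR2 ligand, did not separate the hosts either. Its levels were 12.02, 29.4 and 22.5 CPM in WT => WT, 26.1, 14.1 and 25.1 CPM in St2-/- => WT, 28.6, 14.7 and 12.3 CPM in WT => St2-/-, and 23.7, 12.2 and 7.96 CPM in St2-/- => St2-/-. Each group spanned at least 10 CPM and all 4 overlapped. Averaged over marrows the log2 difference between hosts was -0.39 (SE 0.34, edgeR adjusted p = 0.542). It was -0.20 with WT marrow (SE 0.47, edgeR adjusted p = 0.860), a value that changed sign when WT => WT replicate 2 was left out, and -0.58 with St2-/- marrow (SE 0.48, edgeR adjusted p = 0.634).

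Ccl8, a further monocyte chemoattractant whose mouse form also acts on CCR8, was the one ligand that separated the hosts. It stood at 43.4, 105.9 and 38.6 CPM in WT => WT, at 18.4, 22.3 and 16.4 CPM in St2-/- => WT, at 4.49, 15.0 and 14.8 CPM in WT => St2-/-, and at 12.1, 11.2 and 11.2 CPM in St2-/- => St2-/-. The 3 WT => WT tumours were the highest of the 12, the 3 St2-/- => WT tumours came next, and all 6 tumours of St2-/- hosts lay lower, so the hosts did not overlap. Among all genes, 1.71% (258 genes) were lower in every tumour of St2-/- hosts. Ccl8 was the only member among them.

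The log2 difference of Ccl8 between hosts was -1.59 averaged over marrows (SE 0.33, edgeR adjusted p = 0.0426), 3.01-fold lower in St2-/- hosts, from 40.8 ± 33.7 CPM (SD, n = 6) to 11.5 ± 3.82 CPM (SD, n = 6). This call lies close to the threshold. Leaving out any 1 library gave a log2 difference between -1.72 and -1.29. The call held only without St2-/- => WT replicate 3 (edgeR adjusted p = 0.0493) or WT => St2-/- replicate 1 (0.0295). It was lost without each of the others. Of all genes, 303 and 484 were called in the fits that held it and 80 to 148 in those that lost it. Without WT => St2-/- replicates 2 and 3 together the difference was -2.26 (edgeR adjusted p = 0.106). Under WT marrow the log2 difference was -2.45 (SE 0.47, edgeR adjusted p = 0.0616) and under St2-/- marrow it was -0.73 (SE 0.46, edgeR adjusted p = 0.520), with no overlap in either. The share of all genes lower in all 3 tumours was 9.82% under WT marrow and 12.7% under St2-/- marrow. DESeq2 and limma-voom did call Ccl8 lower under WT marrow, where they called 4.96% and 2.08% of all genes. The difference between these host effects was 1.72 on the log2 scale (SE 0.64, edgeR adjusted p = 0.593). Leaving out those 2 libraries, the log2 difference under WT marrow was -3.80 (edgeR adjusted p = 0.249) and that between host effects 3.07 (0.825).

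In WT hosts, Ccl8 did not overlap between marrow genotypes either, though the difference was not called. St2-/- => WT tumours held 19.0 ± 2.99 CPM (SD, n = 3) and WT => WT tumours 62.6 ± 37.6 CPM (SD, n = 3), a log2 difference of -1.72 (SE 0.46, unadjusted p = 0.00338 and edgeR adjusted p = 0.798). Among all genes 5.41% were lower in all 3 St2-/- => WT tumours, and Ccl8 and Ccl24 were the members that were. In St2-/- hosts the means were 11.4 ± 6.02 CPM (SD, n = 3) with WT marrow and 11.5 ± 0.514 CPM (SD, n = 3) with St2-/- marrow. The WT => St2-/- values were 4.49, 15.0 and 14.8 CPM, so without replicates 2 and 3 that group stood at 4.49 CPM. Averaged over hosts, the log2 difference by marrow was -0.86 (SE 0.32, edgeR adjusted p = 0.999), and -0.18 without WT => St2-/- replicates 2 and 3. Between the extremes, St2-/- => St2-/- against WT => WT, it was -2.45 (SE 0.47, edgeR adjusted p = 0.148), with 0.0266% of genes called in that comparison and no member. Ccl8 and Ccl24 were lower in all 3 tumours there, as 11.6% of genes were.

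**Figure D2:**
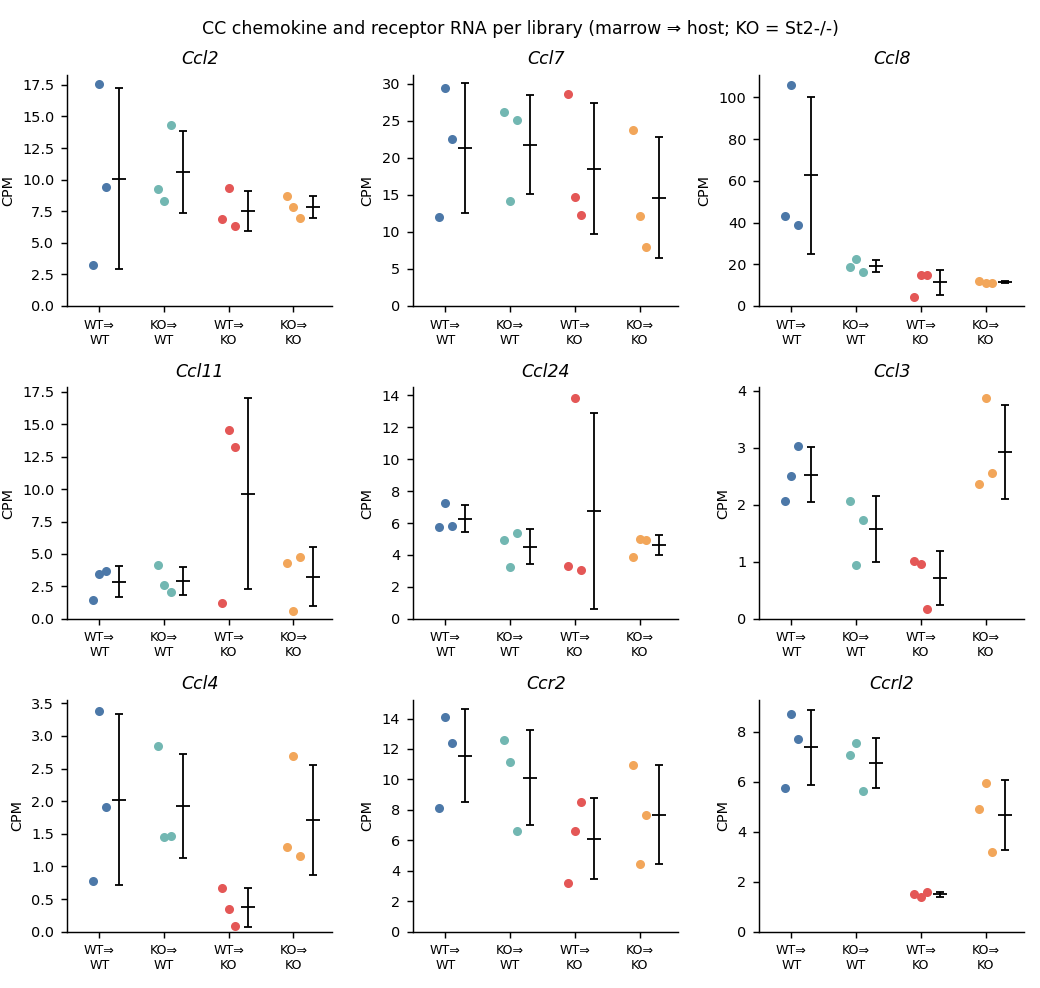
CPM of 9 members in each library, by marrow => host group (KO stands for St2-/-), with points for libraries and bars for the group mean ± SD (n = 3). Ccl8 is highest in WT => WT, Ccrl2, Ccl3 and Ccl4 are lowest in WT => St2-/-, and Ccl2 and Ccl7 overlap in all groups.

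Monocyte and macrophage markers also lay lower in St2-/- hosts, without passing the test. Over 18 marker genes, all of them tested, the summed level was 900 to 1888 CPM in WT => WT, 820 to 1297 in St2-/- => WT, 502 to 967 in WT => St2-/- and 870 to 1166 in St2-/- => St2-/-. No marker was called, 17 of 18 had a log2 host difference below 0, and their median was -0.56 averaged over marrows, -1.11 with WT marrow and -0.01 with St2-/- marrow. Those with the smallest p were Ms4a7 (log2 difference -0.94, SE 0.32, edgeR adjusted p = 0.151), Fcgr1 (-0.86, SE 0.30, edgeR adjusted p = 0.158) and C1qb (-0.76, SE 0.29, edgeR adjusted p = 0.194). The library with the highest Ccl8, WT => WT replicate 2, also had the highest summed level of these markers, 1888 CPM, and the library with the lowest Ccl8, WT => St2-/- replicate 1, had the lowest, 502 CPM. The order was not the same throughout. WT => WT replicate 1 held 43.4 CPM of Ccl8 with 900 CPM of the markers. St2-/- => St2-/- replicate 1 held 12.1 CPM of Ccl8 with 1166 CPM of the markers. Other cell types shared the match. WT => WT replicate 2 was also the highest library for fibroblast (4521 CPM), endothelial (399 CPM) and T and NK cell markers (75.5 CPM). WT => St2-/- replicate 1 was also the lowest for T and NK cell markers, at 8.38 CPM, but not for fibroblast or endothelial markers. The part of any of these cells in the Ccl8 difference was not tested.

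The eotaxins did not differ between hosts beyond their spread. Ccl11, which stromal cells can make, was measured at 1.46, 3.48 and 3.66 CPM in WT => WT, 4.14, 2.57 and 2.08 CPM in St2-/- => WT, 1.19, 14.5 and 13.3 CPM in WT => St2-/-, and 4.28, 0.633 and 4.79 CPM in St2-/- => St2-/-. WT => St2-/- replicates 2 and 3 were over 13 CPM and the other 10 libraries were under 5 CPM. The log2 host difference was 0.95 averaged over marrows (SE 0.60, edgeR adjusted p = 0.396), 1.75 with WT marrow (SE 0.86, edgeR adjusted p = 0.341) and 0.14 with St2-/- marrow (SE 0.85, edgeR adjusted p = 0.962). Without those libraries the sign turned, to -0.56 averaged over marrows and -1.27 with WT marrow. They are the WT => St2-/- libraries with 3785 and 1793 CPM of smooth muscle markers. St2-/- => WT replicates 1 and 2, with 3107 and 1663 CPM of those markers, held 4.14 and 2.57 CPM of Ccl11. The part of smooth muscle in the Ccl11 values was not tested.

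Ccl24, an eotaxin known from macrophages, lay between 3.08 and 7.25 CPM in all but 1 tumour. Its levels were 5.75, 7.25 and 5.81 CPM in WT => WT, 4.91, 3.26 and 5.38 CPM in St2-/- => WT, 3.30, 13.8 and 3.08 CPM in WT => St2-/-, and 3.90, 4.99 and 4.95 CPM in St2-/- => St2-/-. WT => St2-/- replicate 2 was the highest of the 12 libraries, and replicate 3 of the same group was the lowest. The log2 host difference was 0.07 averaged over marrows (SE 0.37, edgeR adjusted p = 0.935), 0.10 with WT marrow (SE 0.52, edgeR adjusted p = 0.939) and 0.03 with St2-/- marrow (SE 0.52, edgeR adjusted p = 0.989). Each of these changed sign under some alternatives.

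The receptor of the eotaxins, Ccr3, was all but undetected: 9 reads in 12 libraries, with none in 4 libraries, 1 in 7 and 2 in 1. A count of 0 allows up to 3 reads, so these libraries do not set Ccr3 apart between groups, and it was removed by the filter on low counts. Eosinophil-defining genes were also low. Epx had 8 reads in all, Prg3 9, Ear2 18, Il5ra 24, Prg2 61 and Siglecf 125, and Ear1 and Ear6 had none. Alox15, which macrophages and epithelium can also express, had 5931 reads and made up nearly all of the summed level of the list, which was 14.7 to 124 CPM in WT hosts and 13.9 to 59.2 CPM in St2-/- hosts. Of the 9 eosinophil markers, 2 were tested (Alox15 and Siglecf) and none was called.

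Ccl3 and Ccl4, neighbours on chromosome 11 that encode attractants of macrophages and T cells, had their lowest group means in WT => St2-/-. Ccl3 stood at 2.06, 2.51 and 3.03 CPM in WT => WT, 2.07, 0.943 and 1.74 CPM in St2-/- => WT, 1.02, 0.957 and 0.176 CPM in WT => St2-/-, and 2.37, 3.88 and 2.55 CPM in St2-/- => St2-/-. These rest on few reads, 25 in the 3 WT => St2-/- libraries together and 88 in WT => WT. All 3 WT => St2-/- tumours were below all 3 WT => WT tumours, and all 3 St2-/- => St2-/- tumours were above all 3 St2-/- => WT tumours. St2-/- => WT replicate 2, at 0.943 CPM, lay within the range of the WT => St2-/- tumours. The log2 host difference was accordingly -1.81 with WT marrow (SE 0.55, edgeR adjusted p = 0.177) and 0.89 with St2-/- marrow (SE 0.52, edgeR adjusted p = 0.499), and -0.46 averaged over both (SE 0.38, edgeR adjusted p = 0.514). The share of genes lower in all 3 tumours of St2-/- hosts under WT marrow was 9.82%. The share of genes higher in all 3 tumours of St2-/- hosts under St2-/- marrow was 10.6%.

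Ccl4 stood at 0.773, 3.38 and 1.91 CPM in WT => WT, 2.84, 1.46 and 1.47 CPM in St2-/- => WT, 0.677, 0.348 and 0.0879 CPM in WT => St2-/-, and 1.30, 2.69 and 1.16 CPM in St2-/- => St2-/-. The 3 WT => St2-/- tumours, with 13 reads in all, were the lowest of the 12. Under WT marrow, 9.82% of all genes were lower in all 3 tumours of St2-/- hosts. The share lowest among all 12 was not counted. The log2 host difference was -1.28 averaged over marrows (SE 0.49, edgeR adjusted p = 0.187), -2.40 with WT marrow (SE 0.73, edgeR adjusted p = 0.177) and -0.17 with St2-/- marrow (SE 0.65, edgeR adjusted p = 0.935). None of these was called by edgeR. With limma-voom, Ccl4 was called lower averaged over marrows (limma-voom adjusted p = 0.0265), where that tool called 12.3% of all genes, and Ccl3 was called lower with WT marrow, where it called 2.08%. With DESeq2, Ccl3 and Ccl4 were called lower with WT marrow, where 4.96% of genes were called. Leaving out WT => St2-/- replicates 2 and 3, the difference with WT marrow was -1.31 for Ccl3 (edgeR adjusted p = 0.743) and -1.56 for Ccl4 (0.831), and averaged over marrows it was -0.21 (0.844) and -0.86 (0.564).

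Among St2-/- hosts, Ccl3, Ccl4 and Ccrl2 were higher in all 3 tumours with St2-/- marrow than in all 3 with WT marrow, as 4.58% of all genes were. The log2 differences were 2.02 for Ccl3 (SE 0.55, edgeR adjusted p = 0.995), 2.17 for Ccl4 (SE 0.73, edgeR adjusted p = 0.995) and 1.63 for Ccrl2 (SE 0.31, edgeR adjusted p = 0.957). No gene at all passed that test, and 610 had an unadjusted p under 0.05. DESeq2 called 17 genes there (0.12%), Ccrl2 among them, and limma-voom called 4 (0.0266%) and no member. The differences were 1.52, 1.33 and 1.61 for Ccl3, Ccl4 and Ccrl2 without WT => St2-/- replicates 2 and 3. The difference between host effects, St2-/- marrow minus WT marrow, was 2.69 for Ccl3 (SE 0.76, edgeR adjusted p = 0.539), 2.24 for Ccl4 (SE 0.97, edgeR adjusted p = 0.648) and 1.76 for Ccrl2 (SE 0.43, edgeR adjusted p = 0.539). Here too no gene passed, with 1144 at an unadjusted p under 0.05. DESeq2 called 93 genes in that comparison (0.619%), Ccl3 and Ccrl2 among them, and limma-voom called 4 genes (0.0266%) and no member. Leaving out the same 2 libraries gave 2.20 for Ccl3, 1.39 for Ccl4 and 1.74 for Ccrl2.

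The share of genes called by edgeR was 0% in each of the 3 comparisons of marrow genotype (averaged over hosts, in WT hosts and in St2-/- hosts) and 0% for the difference between host effects, and no member was called in them. Unadjusted p-values under 0.05 numbered 415 averaged over hosts and 910 in WT hosts. In both, DESeq2 and limma-voom called 0 genes as well. The log2 difference by marrow averaged over hosts was 0.75 for Ccrl2 (SE 0.21, unadjusted p = 0.00486, edgeR adjusted p = 0.999) and 1.05 for Ccl4 (SE 0.49, edgeR adjusted p = 0.999). They were 0.74 and 0.63 without WT => St2-/- replicates 2 and 3.

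Ccr2 marks monocytes fresh from the blood. It stood at 8.16, 14.1 and 12.4 CPM in WT => WT, 12.6, 11.1 and 6.59 CPM in St2-/- => WT, 3.22, 6.61 and 8.53 CPM in WT => St2-/-, and 10.9, 4.43 and 7.65 CPM in St2-/- => St2-/-. The lowest value was in WT => St2-/- and the highest in WT => WT, but every pair of groups overlapped. The log2 host difference was -0.66 averaged over marrows (SE 0.31, edgeR adjusted p = 0.253), -0.92 with WT marrow (SE 0.44, edgeR adjusted p = 0.322) and -0.40 with St2-/- marrow (SE 0.43, edgeR adjusted p = 0.726). With WT => St2-/- replicates 2 and 3 left out it was -1.12 averaged over marrows (edgeR adjusted p = 0.284) and -1.84 with WT marrow (0.570). In CPM the levels were 10.8 ± 2.88 (SD, n = 6) in WT hosts and 6.89 ± 2.80 (SD, n = 6) in St2-/- hosts.

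Ccrl2 encodes an atypical receptor that binds the chemoattractant chemerin and presents it to other cells. It was the member with the smallest p. It stood at 5.75, 8.70 and 7.72 CPM in WT => WT, 7.07, 7.54 and 5.64 CPM in St2-/- => WT, 1.52, 1.39 and 1.58 CPM in WT => St2-/-, and 4.89, 5.94 and 3.17 CPM in St2-/- => St2-/-. The 3 WT => St2-/- tumours lay within 0.2 CPM of each other and below all 9 others, and the St2-/- => St2-/- tumours lay between them and the WT hosts. Under WT marrow, 9.82% of all genes were lower in all 3 tumours of St2-/- hosts. The share below all 9 others was not counted. The hosts overlapped: the highest St2-/- host, at 5.94 CPM, exceeded 2 WT hosts, at 5.64 and 5.75 CPM.

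The log2 host difference of Ccrl2 was -1.41 averaged over marrows (SE 0.22, edgeR adjusted p = 0.00984), 2.66-fold lower. It was -2.29 with WT marrow (SE 0.32, edgeR adjusted p = 0.0238), 4.90-fold lower, and -0.53 with St2-/- marrow (SE 0.30, edgeR adjusted p = 0.477). Averaged over marrows, the call held when any 1 library was left out, with log2 differences from -1.52 to -1.31. Without WT => St2-/- replicates 2 and 3 together the difference was -1.40 (edgeR adjusted p = 0.128), and with WT marrow it was -2.27 (0.401). With WT marrow the call was lost without WT => WT replicate 2 or 3 or St2-/- => WT replicate 1. It was also lost without WT => St2-/- replicate 2 or 3 or St2-/- => St2-/- replicate 1. Leaving out any 1 library gave log2 differences with WT marrow from -2.44 to -2.16. Where the call was lost, 1 to 12 of all genes were called, and where it held, 13 to 142 were. St2-/- => St2-/- tumours differed from WT => WT by -0.66 (SE 0.30, edgeR adjusted p = 0.359).

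**Figure D3:**
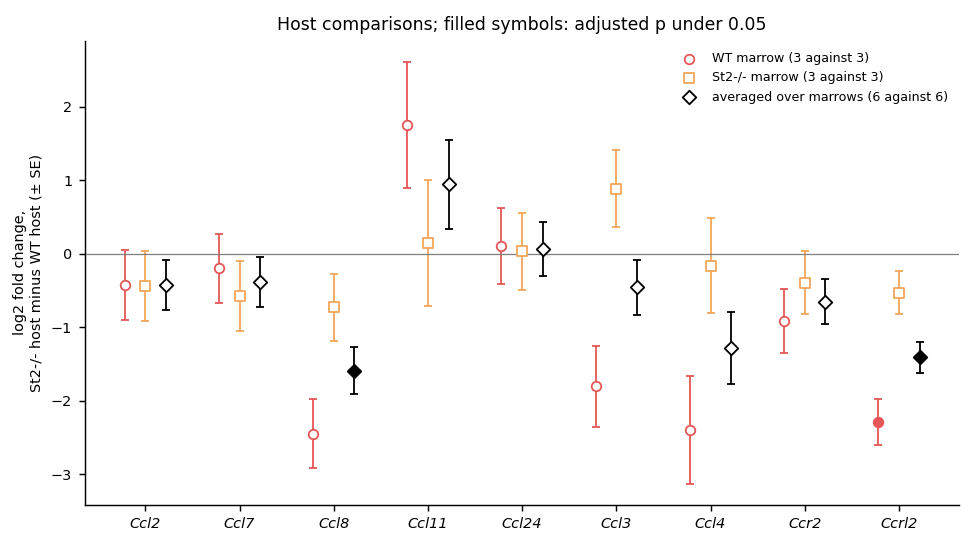
Log2 host difference (St2-/- host minus WT host) of the 9 tested members, averaged over marrows, with WT marrow and with St2-/- marrow; bars are SE and filled points have an edgeR adjusted p under 0.05. Ccl8 and Ccrl2 are filled averaged over marrows, Ccrl2 alone with WT marrow and none with St2-/- marrow.

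The week of collection did not line up with host genotype in full, so the called genes were also read within each week. At 13 weeks Ccrl2 was 5.75 to 8.70 CPM in 4 WT hosts and 1.39 to 3.17 CPM in 3 St2-/- hosts, with no overlap. At 14 weeks it was 5.64 to 7.72 CPM in 2 WT hosts and 1.52 to 5.94 CPM in 3 St2-/- hosts, which overlapped. Week and marrow were mixed in St2-/- hosts: 2 of the 3 at 13 weeks had WT marrow, against 1 of the 3 at 14 weeks. That 1 tumour held 1.52 CPM of Ccrl2, and the St2-/- => St2-/- tumours at 14 weeks held 4.89 and 5.94 CPM. Ccl8 was 18.4 to 105.9 CPM against 11.2 to 15.0 CPM at 13 weeks and 16.4 to 38.6 CPM against 4.49 to 12.1 CPM at 14 weeks, with WT hosts higher in both. With the week as a term in the edgeR fit both genes stayed called averaged over marrows, and Ccrl2 with WT marrow was not called (edgeR adjusted p = 0.0511).

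Of 27 other genes of the CC chemokine system, 21 were tested, and 18 had a log2 host difference below 0 averaged over marrows (median -0.60). Their summed level was 192 to 590 CPM in the 6 WT hosts and 138 to 382 CPM in the 6 St2-/- hosts, which overlapped. With WT marrow 16 of the 21 lay below 0 (median -0.54) and with St2-/- marrow 17 did (median -0.44), and edgeR called none of the 21 in either.

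Of 19 cytokines and receptors known to induce these chemokines, 16 were tested, and 2 were called lower in St2-/- hosts averaged over marrows. Tnfrsf1a, a receptor of tumour necrosis factor, was 182 ± 22.6 CPM (SD, n = 6) in WT hosts and 104 ± 13.1 CPM (SD, n = 6) in St2-/- hosts, a log2 difference of -0.80 (SE 0.12, edgeR adjusted p = 0.00875). The hosts did not overlap, at 147 to 205 CPM against 84.1 to 123 CPM. Ifng, the interferon of T and NK cells, had 116 reads in the 6 WT hosts, 0.515 to 4.12 CPM, and 5 reads in the 6 St2-/- hosts, none of which was above 0.158 CPM (edgeR adjusted p = 0.0124). Its call was lost without St2-/- => St2-/- replicate 1 (edgeR adjusted p = 0.0544) or replicate 3 (0.0534). Of the 16, 14 had a log2 host difference below 0, with a median of -0.71. Without WT => St2-/- replicates 2 and 3 together, neither Tnfrsf1a nor Ifng was called (edgeR adjusted p = 0.110 and 0.128).

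No marker of the other cells that could make or carry these transcripts was called. Averaged over marrows, the median log2 host difference was -0.81 over 2 tested eosinophil markers, -1.07 over 5 neutrophil, -0.66 over 6 T and NK cell, -0.20 over 8 fibroblast, 0.07 over 9 smooth muscle, 0.50 over 8 endothelial, -0.33 over 12 colon epithelial and 1.52 over 9 mast cell markers. All 9 mast cell markers lay above 0, and their summed level was highest in WT => St2-/- replicate 2 at 2081 CPM, the library with the highest Ccl24. It was next highest in WT => St2-/- replicate 1 at 634 CPM, where Ccl24 was 3.30 CPM. The part of these cells in the chemokine differences was not tested.

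**Figure D4:**
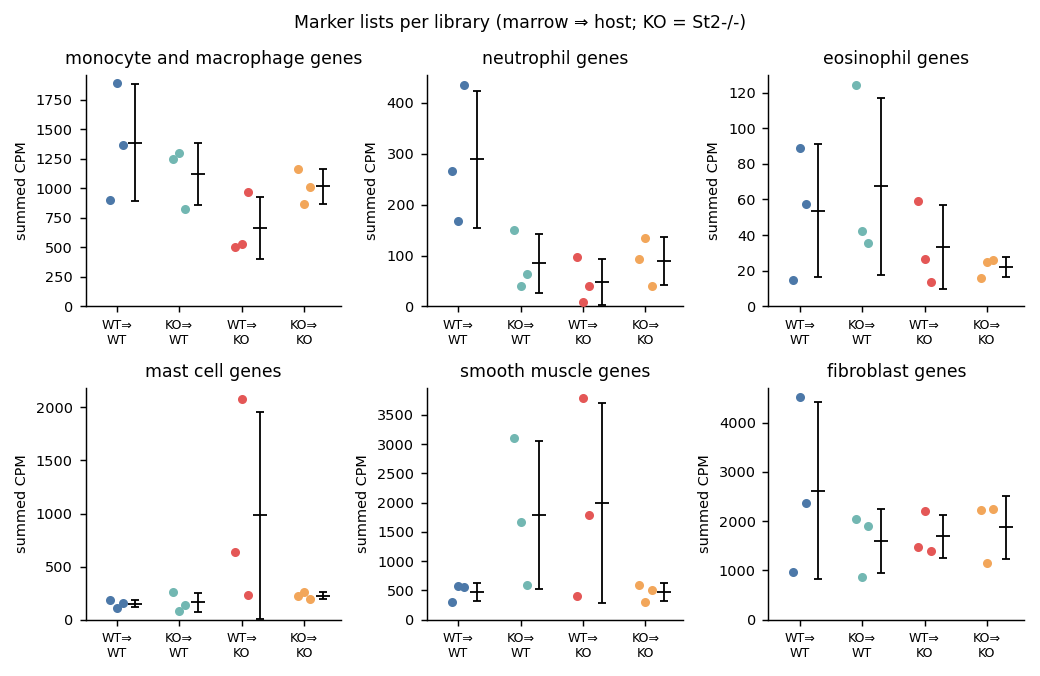
Summed CPM of the marker genes of 6 cell types in each library, by marrow => host group (KO stands for St2-/-), with points for libraries and bars for the group mean ± SD (n = 3). Monocyte and macrophage markers are lowest in WT => St2-/- replicates 1 and 2, and smooth muscle markers are high in WT => St2-/- replicates 2 and 3 and St2-/- => WT replicates 1 and 2.

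Across the 12 libraries some members varied together. These are Pearson correlations of log2 CPM, a description over libraries that share tissue make-up. The highest pairs were Ccl4 with Ccrl2 (r = 0.849) and Ccl3 with Ccl4 (r = 0.833), then Ccl8 with Ccr2 (r = 0.736), and the lowest was Ccl11 with Ccl3 (r = -0.547). Ccl2 and Ccl7, the genes next to each other, had r = 0.589, while Ccl8, in the same run of genes, had r = 0.261 with Ccl2 and 0.147 with Ccl7. Among all genes tested, those most like Ccr2 were Fcgr2b (r = 0.965), Fyb (0.960) and Ms4a6b (0.958), and those most like Ccrl2 were Irg1 (0.938), H2-K1 (0.931) and H2-Q2 (0.928). For Ccl8 they were Aup1 (r = 0.947), Ccdc88b (0.927) and Ssbp4 (0.918), for Ccl11 Dclk3 (0.928), Cnrip1 (0.927) and Ddr2 (0.903), for Ccl3 Klrg2 (0.899), Hspa8 (0.876) and Spg21 (0.872), and for Ccl2 Rbmx2 (0.903), Oaf (0.890) and Ift172 (0.869).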

How the data were processed

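Bulk RNA-seq of 12 colon tumours (TruSeq, single-end, 50-base reads) was analysed from the table of raw read counts per gene that the authors deposited. Per the submitters' processing notes TopHat and Bowtie2 were used with GRCm38 (mm10); their versions, the counter, the annotation and the use of strand are not given in the sources used here. 5 summary entries that name no gene, 49.8 to 59.6% of each column's total (36.7 to 48.9% not uniquely aligned), were left out, so reads shared by near-identical genes are lost. The members, lists and tests were chosen with earlier results of these data known.

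Counts were tested with edgeR 4.0.16 (R 4.3.3; TMM, 1 coefficient per group over all 12 libraries, robust quasi-likelihood F test, two-sided, Benjamini-Hochberg adjustment over 15060 genes; filterByExpr removed 9002). CPM use TMM-scaled totals (factors 0.899 to 1.119); log2 CPM use a prior count of 2. The steps were tested on simulated data. The labels call the libraries of a group biological replicates. Each gene total of 10293818 or more makes 1 read worth less than 0.1 CPM, which is counting precision only. Named were all members, Il1rl1, called genes of each list or else up to 3 by smallest p, and the 3 genes most correlated with 6 of the members, leaving out predicted genes. Ly6g and Trac were not analysed here. 1 result of the list of other CC chemokine genes is not reported here. Symbols followed the table (Adgre1 as Emr1, Siglecf as Siglec5). Alternatives were DESeq2 1.42.0 and its size factors, limma-voom 3.58.1, other filters, a replicate block, the week, fewer groups and left-out libraries. RefSeq promoter windows (GRCm38.p6) were matched by symbol.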

Additional observations from a re-analysis of the deposited data

Results flagged for a closer look

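In each set of 6 libraries with the same host genotype, the library farthest from the rest was compared with the spread of the set (Dixon's test at the 95% level). Of 18 such sets, 9 genes in 2 hosts, 3 had a library that stood apart, and chance gives about 1 in 20. Ccl8 in WT hosts was 105.9 CPM in WT => WT replicate 2, where the median of the other libraries was 22.3 CPM. Within its own group, replicates 1 and 3 held 43.4 and 38.6 CPM. Ccl8 in St2-/- hosts was 4.49 CPM in WT => St2-/- replicate 1, where the median of the others was 12.1 CPM. Ccl24 in St2-/- hosts was 13.8 CPM in WT => St2-/- replicate 2, where the median of the others was 3.90 CPM. The same WT => St2-/- replicate 2 had 2081 CPM of mast cell and 3785 CPM of smooth muscle markers. WT => St2-/- replicate 1 had 634 CPM of mast cell markers and 3.30 CPM of Ccl24. Replicate 3 of that group had 1793 CPM of smooth muscle markers and 3.08 CPM of Ccl24. The part of these cells in the Ccl24 value was not tested.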

How the results depend on the processing

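Of 963 values of single genes under alternatives, 885 kept direction and side of the threshold, 40 lost the call, 13 gained it and 25 changed sign. The number of members called between hosts averaged over marrows, 2, was 1 with a replicate block (Ccrl2; Ccl8 edgeR adjusted p = 0.0552), 1 to 2 leaving out 1 library and 0 without WT => St2-/- replicates 2 and 3 together, and 3 by limma-voom (Ccl4 added). With WT marrow, 1 member was called, against 4 by DESeq2, 3 by limma-voom, 0 with the replicate block, 0 with the week as covariate, 0 in a fit of only the 2 groups, 0 to 1 leaving out 1 library and 0 without WT => St2-/- replicates 2 and 3. Where none was called, limma-voom called 1 with St2-/- marrow (Ccrl2) and 2 for both against neither (Ccl8 and Ccrl2), and DESeq2 called 1 there (Ccl8), 1 by marrow in St2-/- hosts (Ccrl2) and 2 for the difference between host effects (Ccl3 and Ccrl2). The tools differ in their calls over all genes too: between hosts averaged over marrows, DESeq2 called 1196 and limma-voom 1858 against 206 by edgeR. With WT marrow they called 746 and 314 against 24, and with St2-/- marrow 262 and 2004 against 9. For both against neither they called 473 and 1722 against 4. Fewer genes were also called with WT marrow by edgeR with the replicate block (13), the week (5) or only the 2 groups (1 of 14383). Leaving out 1 library gave 1 to 142 genes there. Averaged over marrows it gave 80 to 484, and the replicate block gave 152.

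All changes of sign were among values that were not called. For Ccl24 the log2 host difference was -0.28 averaged over marrows and -0.62 with WT marrow by limma-voom. With the replicate block Ccl24 was -0.047, -0.062 with WT marrow and -0.032 with St2-/- marrow. Leaving out 1 library, Ccl24 ran from -0.47 to 0.24, from -0.97 to 0.45 with WT marrow and from -0.14 to 0.18 with St2-/- marrow. The same ranges were -0.84 to 0.24 for Ccl2 and -0.66 to 0.10 for Ccl7 with WT marrow, and -0.64 to 0.23 for Ccl4 and -0.25 to 0.63 for Ccl11 with St2-/- marrow. Without WT => St2-/- replicates 2 and 3 together, Ccl11 was -0.56 averaged and -1.27 with WT marrow, Ccl24 -0.45 and -0.92, and Ccl7 0.43 with WT marrow. The cause was not tested.

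Replicate numbers did not pair the libraries: deviations from group means correlated between -0.44 and 0.31 over 18 pairs with the same number, 5 of them over 0.1. Group means in CPM moved by less than 1 SD with DESeq2 size factors in all 40 cases, and 6 of 18 correlations moved by 0.1 or more as Spearman's rho. Depth limits Ccl3 and Ccl4, with 281 and 214 reads in all, and Ccr3, with 9.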
